A study of Brachypodium distachyon with 6 samples.

Results

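The genes described here are the 200 strongest marker genes of the silica cell lineage of the grass *Brachypodium distachyon*, followed in bulk RNA-sequencing of leaf developmental zones with and without protoplasting. They were taken from the study's table of single-cell marker genes, in which the silica cell lineage cluster was compared with the other epidermal clusters. Genes were ordered by the share of cells that detect the gene in the cluster minus the share in the other cells, after genes that stand in other marker and regulator lists of the study had been left out. Of 1999 silica cell lineage genes in the table text, 1496 were left, and the first 200 were kept. The difference in share ran from 60.5 percentage points for the gene ranked 1 to 27.6 for the gene ranked 200, and the gene just outside the list stood at 27.5. The members were thus chosen by shares of single protoplasts, which are given here as a description only. Of the 200 genes, 195 were found in the bulk count table of 36647 genes and passed the filter on low counts, and the other 5 were not analysed here. The list is not particular to silica cells, since 89 of the 200 genes also stand among the stage 0-2 markers of early protodermal cells in the same partial table text, each detected in a larger share of stage 0-2 cells than of the cells they were compared with. The files pair the gene IDs with no names or products, so that members are called by their rank in the list, with IDs for 4 of them.

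Silica cells are small epidermal cells of grasses that fill with amorphous silica. They arise above the veins, in cell files that also make hair cells, by an asymmetric division of the cells between the hairs. The best known silica cell gene is *SILIPLANT1* of sorghum, which encodes a protein that precipitates silica, and its *B. distachyon* homologs are called *BdSLP1-like*. Protoplasts are cells set free by enzymes that digest the cell wall, and the release and the time in the enzyme solution can change transcript levels or lose cell types that resist the digestion.

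The bulk experiment held 6 libraries of polyA RNA from leaf developmental zones of 3 wk old, soil-grown WT Bd21-3 plants. Each group had 3 biological replicates. A digested sample pooled 10 leaf zones, treated with Macerozyme R10 and Cellulase Onozuka RS, whereas an undigested one pooled 5. The title and the library name gave each library its group, whereas the treatment entry names the opposite group for all 6 libraries. The groups are therefore called by their titles throughout, and every direction below would turn if the titles were exchanged. Total counts ran from 17482438 to 24621927 per library, so that 3 counts stood between 0.106 and 0.205 CPM (the count scaled to library size). Libraries of the same group differed from each other by more than counting noise, a chi-square statistic over genes being 6.71 to 44.1 times its degrees of freedom.

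Genes with a known place in the leaf were read first. All 4 *BdSLP1-like* genes of silica cells and mature hair cells (*BdSLP1-like1* to *4*) were higher in the libraries labelled protoplasted, and their summed level was 1001 to 1428 CPM there and 278 to 415 CPM in the libraries labelled non-protoplasted. *BdSLP1-like1* stood apart from the other 3 genes, at 97.2, 102 and 88.7 CPM against 0.614, 0.278 and 0.567 CPM (log2 fold change 7.65 ± 0.22 SE, edgeR adjusted p = 6.59e-09). The study names this gene as affected by protoplasting and gives no direction for it. Its filter on candidate marker genes left out those upregulated in its protoplasted bulk samples. Without it the sum was 912 to 1331 CPM against 277 to 414 CPM. *BdSLP1-like3* stood at 490.3, 275 and 246 CPM against 145, 60.9 and 67.1 CPM (log2 fold change 1.89 ± 0.37 SE, edgeR adjusted p = 0.0011). Of the other marker lists, 8 of 8 hair cell genes, 2 of 3 epidermal genes, 2 of 2 mesophyll genes, 5 of 6 stomatal lineage genes and 4 of 6 vascular genes were also higher and 1 vascular gene was lower, where 38.7% of all genes tested were higher and 38.3% lower. Of the 4 shoot apex genes, *BdKN1* and *BdKNAT1-like* had 0 counts in all 6 libraries. *BdCLV1* had 34, 17 and 17 counts under the protoplasted label and 14, 8 and 12 in the others (edgeR adjusted p = 0.364). *BdFCP1* had 6, 9 and 7 against 1, 6 and 3 counts and did not pass the filter on low counts. The summed hair cell genes stood at 304 to 441 CPM against 36.5 to 51.6 CPM, and the epidermal genes at 231 to 327 against 52.4 to 66.8 CPM. Some markers were nearly absent from the libraries labelled non-protoplasted. There *BdSPL5* had 0, 0 and 1 counts (123, 51 and 70 in the others) and *BdWOX3B* 0, 1 and 1 (120, 108 and 104). *BdSPCH1* had 0, 0 and 1 (53, 45 and 51). These 3 genes were picked after their values were seen. Others of their lists had more counts under the non-protoplasted label, such as *BdSLP1-like5* (483, 651 and 521) and *BdFAMA* (73, 68 and 80). Outside the shoot apex no marker was as low as these 3 genes under the protoplasted label. What this means for the conflict of labels was not tested. The part of these shifts in the results below was not tested. In bulk RNA, fewer cells of a type and less RNA per cell cannot be told apart.

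Most of the silica cell lineage members moved the other way from the *BdSLP1-like* silica cell genes. The median member stood at 76.2, 76.7 and 80.3 TPM (counts scaled to gene length and library) in the libraries labelled non-protoplasted and at 7.85, 7.23 and 9.70 TPM in the libraries labelled protoplasted. The 2 groups of medians did not overlap. The median over all genes tested was 7.79 to 8.75 TPM in the former and 8.57 to 9.18 TPM in the latter, so that the members lay well above the typical gene in one group and close to it in the other. None of the 195 members was under 1 TPM in a library labelled non-protoplasted, and 48 to 51 were so in each library labelled protoplasted. At the upper end, 75 to 84 members reached 100 TPM in the former and 23 to 26 in the latter.

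**Figure D1:**
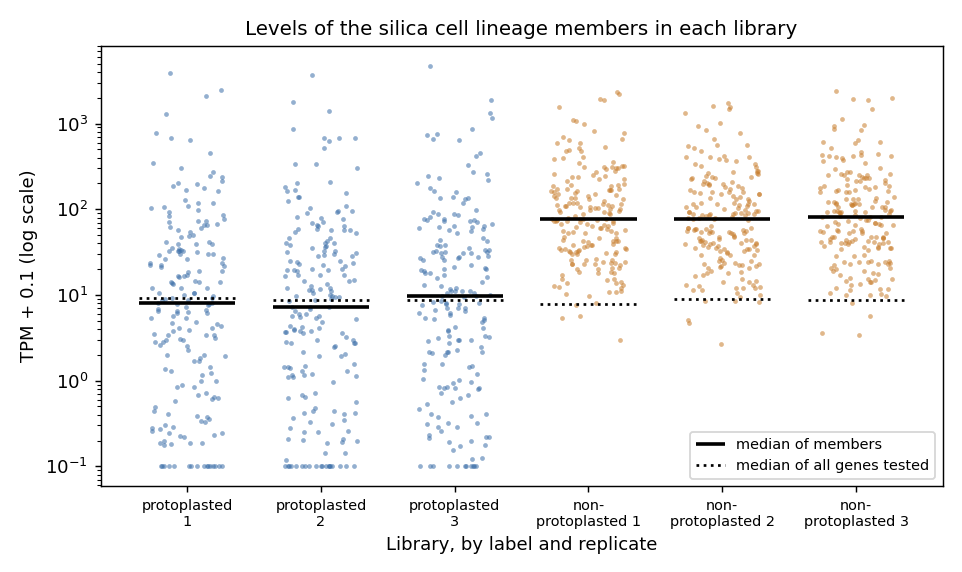
Level of each of the 195 members (points, TPM + 0.1, log scale) in the 6 libraries, with the median of the members (solid line) and of all genes tested (dotted line). The medians of the members stand at 76.2 to 80.3 TPM in the libraries labelled non-protoplasted and at 7.23 to 9.70 TPM in those labelled protoplasted, where the points spread down to 0.

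The summed level fell less than the median did. Members held 2.83%, 2.41% and 2.75% of the counts in the libraries labelled non-protoplasted and 1.24%, 1.18% and 1.46% in the libraries labelled protoplasted. The means were 2.66% ± 0.223 (SD, n = 3) and 1.29% ± 0.147 (SD, n = 3), a ratio of 2.06. The groups did not overlap, and the exact two-sided permutation test over the libraries gave p = 0.1, the smallest value that 3 against 3 libraries can reach. In TPM the share was 3.56% ± 0.282 against 1.80% ± 0.161 (SD, n = 3 each, the same exact p = 0.1).

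Gene by gene, under the protoplasted label 152 of 195 members were lower and 21 higher, and 22 did not pass the test (edgeR quasi-likelihood test, Benjamini-Hochberg adjusted p under 0.05 over 23677 genes). The members lower made up 77.9%, where 38.3% of all genes tested were lower, and the members higher made up 10.8%, where 38.7% of all genes were higher. The median log2 fold change of the members was -3.08, with quartiles of -6.77 and -0.67, and that of all genes was 0.04. It stayed at -3.08 with the members at 0 counts placed at their bound. A log2 fold change below -3 was found for 100 members (51.3%, against 12.6% of all genes) and one above 3 for 1 member (0.513%, against 5.09% of all genes). The groups of libraries did not overlap for 151 members that were lower and 22 that were higher (40.1% and 40.4% of all genes).

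**Figure D2:**
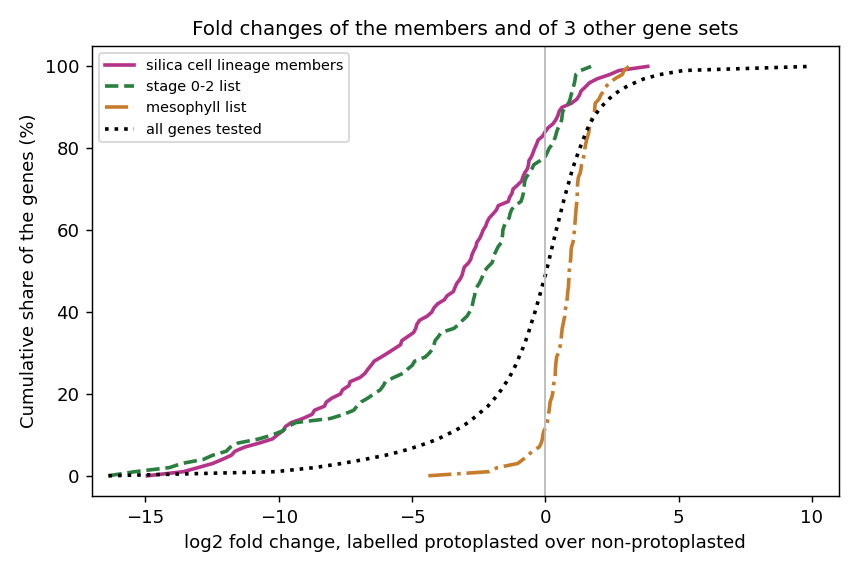
Cumulative share of genes (y axis, %) against the log2 fold change (x axis, labelled protoplasted over non-protoplasted) for the members, 2 comparison lists and all genes tested. Tissue markers were left out of the members but not of the 2 comparison lists. The curve of the members crosses 50% at -3.08, that of the stage 0-2 list at -2.28, that of all genes at 0.04 and that of the mesophyll list at 0.90.

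The fall covered a wide range. Of the 195 members, 20 had a fitted log2 fold change below -10, where 1.09% of all genes tested lay, 38 lay between -10 and -6 (3.92% of all genes) and 42 between -6 and -3 (7.56%). A smaller change between -3 and -1 was fitted for 39 members (16.2% of all genes). The 152 members called lower had a median log2 fold change of -4.45 and a median SE of 0.26, and their adjusted p ran from 4.18e-09 to 0.0299. Their median level was 87.0 TPM in the libraries labelled non-protoplasted and 4.46 TPM in the others. In 151 of the 152 the libraries did not overlap. The exception, ranked 154, stood at 22.5, 11.5 and 7.85 TPM in the libraries labelled protoplasted and at 20.1, 18.1 and 22.4 TPM in the others.

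A set of members was almost absent from one group. In 21 members every library labelled protoplasted held at most 3 counts (10.8%, against 3.94% of all genes tested), and 9 of these had 0 counts in all 3 (4.62%, against 1.58%). No member was this low in the libraries labelled non-protoplasted, where the smallest count of any member was 38. Group means of the 21 members ran from 4.53 to 431 CPM there, with a median of 45.5 CPM, and 3 of them were under the median of all genes tested. The member ranked 135 had 3, 2 and 1 counts under the protoplasted label against 7263, 8579 and 8478 counts in the libraries labelled non-protoplasted. The member ranked 72 held 3, 1 and 3 counts against 4838, 3842 and 4159.

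Among the members with 0 counts, BdiBd21-3.4G0070300, ranked 107, had the largest fall. It stood at 655, 378 and 429 TPM (238, 125 and 143 CPM) in the libraries labelled non-protoplasted. Against a floor of 3 counts in each library labelled protoplasted it was at least 1524-fold lower there (adjusted p = 3.65e-07). BdiBd21-3.2G0173800, ranked 13, stood at 215, 160 and 212 TPM (125, 85.1 and 113 CPM) and was at least 974-fold lower (edgeR adjusted p = 7.06e-08). Over the 9 members the bound ran from 40.9-fold to 1524-fold, with a median of 296-fold. All 9 passed the filter on low counts only through the libraries labelled non-protoplasted. They were ranked in single protoplasts on another annotation version. What their 0 counts under the protoplasted label mean was not tested.

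**Figure D3:**
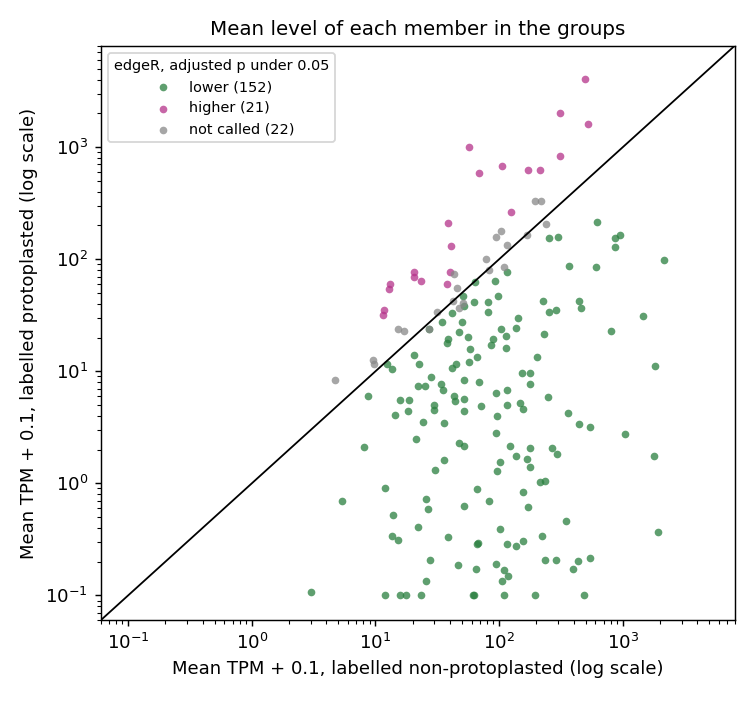
Mean level of each member in the libraries labelled non-protoplasted (x axis) and protoplasted (y axis), as TPM + 0.1 on log scales, coloured by the edgeR call. The 152 members called lower lie close to or below the line of equal levels, down to 0 TPM, and the 21 called higher lie above it.

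The most abundant members were not the same in the 2 groups. Of the 10 members with the highest mean TPM in the libraries labelled non-protoplasted (802 to 2154 TPM) and the 10 highest in those labelled protoplasted (331 to 4068 TPM), 0 were shared. All of the former 10 were lower in the libraries labelled protoplasted, at means of 0.269 to 166 TPM, and 9 of the latter 10 were higher there. The rank correlation of the members' mean TPM between the groups was 0.136 over 195 genes, and it was 0.591 over the 23672 genes tested that have a length. These are correlations across genes of the same libraries, which are not independent replicates.

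The member highest in the libraries labelled non-protoplasted, ranked 98, stood at 2318, 1729 and 2414 TPM there and at 32.7, 32.9 and 232 TPM in the others (log2 fold change -4.71 ± 0.78 SE, edgeR adjusted p = 0.000378). The member ranked 168 stood at 2236, 1571 and 1948 TPM against 0.0876, 0 and 0.718 TPM. The member ranked 61 stood at 1099.9, 925 and 1128 TPM against 3.08, 2.44 and 2.37 TPM, with little spread in either group (log2 fold change -8.93 ± 0.21 SE, edgeR adjusted p = 4.18e-09). Both of these lay below the median member in the libraries labelled protoplasted. The member ranked 102 kept a higher level, with 984, 1010.3 and 874 TPM against 198, 124 and 177 TPM (log2 fold change -2.82 ± 0.19 SE, edgeR adjusted p = 8.41e-07).

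**Figure D4:**
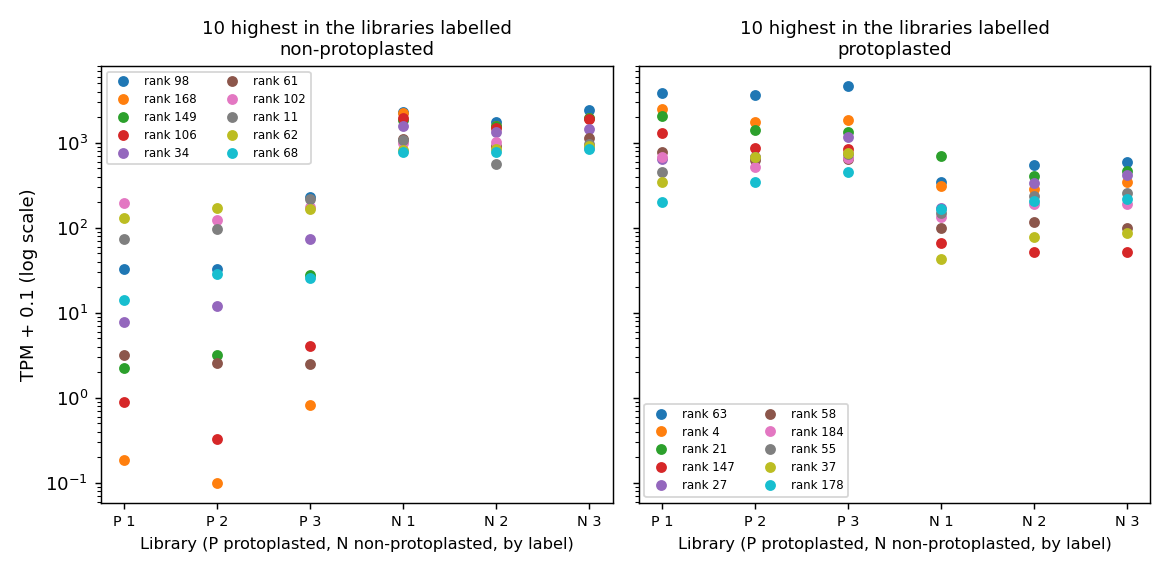
TPM + 0.1 (log scale) in each library for the 10 members with the highest mean in the libraries labelled non-protoplasted (left) and the 10 highest in those labelled protoplasted (right). Each colour is 1 member, named by its rank. The left set falls from 802 to 2154 TPM to means of 0.269 to 166 TPM, and the right set shares no gene with it.

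The 21 members that were higher changed less than those that were lower. Their median log2 fold change was 1.47, with a range from 0.40 to 3.84, and their median level was 210.4 TPM in the libraries labelled protoplasted and 40.8 TPM in the others. In all 21 the libraries of the groups did not overlap. BdiBd21-3.3G0731500, ranked 147, was the 1 member above a log2 fold change of 3, with 1302, 873 and 854 TPM in the libraries labelled protoplasted against 66.5, 52.4 and 52.3 TPM (3.84 ± 0.22 SE, edgeR adjusted p = 2.68e-07). BdiBd21-3.1G0189000, ranked 37, stood at 348, 674 and 753 TPM against 42.3, 76.8 and 87.6 TPM (log2 fold change 2.84 ± 0.34 SE, edgeR adjusted p = 4.05e-05). Replicate 1 was the lowest library of both groups for this gene.

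The most abundant of these members carried a large part of the signal that remained. The member ranked 63 reached 3842, 3664 and 4699 TPM in the libraries labelled protoplasted, the highest level of any member in any library, against 345, 547 and 595 TPM (log2 fold change 2.76 ± 0.22 SE, edgeR adjusted p = 2.33e-06). The member ranked 4 stood at 2460.4, 1764 and 1859 TPM against 306, 283 and 343 TPM (log2 fold change 2.41 ± 0.16 SE, edgeR adjusted p = 8.43e-07). The 10 highest members held 68.8% of the members' summed TPM in the libraries labelled protoplasted and 38.3% in the libraries labelled non-protoplasted.

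The 22 members that did not pass the test had log2 fold changes from -0.66 to 0.59, a median of -0.02 and a median SE of 0.26. They stood at a median of 64.7 TPM in the libraries labelled protoplasted and 49.4 TPM in the others, and in 21 of the 22 the libraries overlapped. The member ranked 1, with the largest difference in share of cells, was among them. It stood at 18.5, 66.2 and 137 TPM in the libraries labelled protoplasted and 35.4, 35.8 and 57.9 TPM in the others (log2 fold change 0.52 ± 0.56 SE, edgeR adjusted p = 0.412), so that its spread between replicates was wider than the difference. Without protoplasted replicate 1 its adjusted p was 0.0116, at a log2 fold change of 0.99. The member ranked 200 stood at 12.1, 2.66 and 6.93 TPM against 23.5, 29.3 and 22.8 TPM (log2 fold change -2.11 ± 0.40 SE, edgeR adjusted p = 0.000876). The gene just outside the list stood at 33.2, 56.9 and 62.2 TPM against 31.9, 41.2 and 38.1 TPM (log2 fold change 0.18 ± 0.23 SE, edgeR adjusted p = 0.481).

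Rank in the list did not order the fold changes. Among the members ranked 1 to 50 that were tested, 38 of 50 were lower and 5 higher, with a median log2 fold change of -4.44. For ranks 51 to 100 this was 37 of 46 lower, 6 higher and a median of -3.35, for ranks 101 to 150 it was 43 of 50, 5 and -4.55, and for ranks 151 to 200 it was 34 of 49, 5 and -2.11. The last block had the smallest median fall, and higher members were found in every block.

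**Figure D5:**
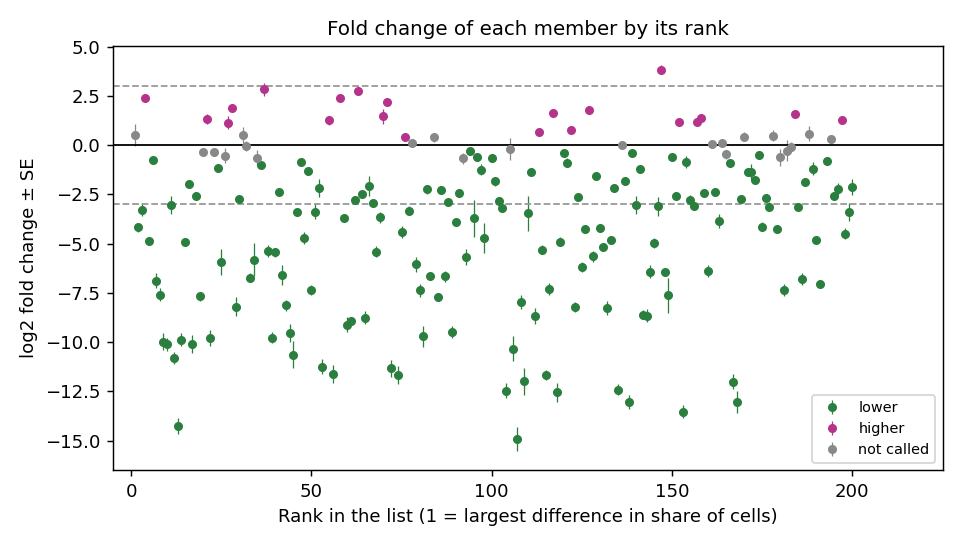
Log2 fold change (y axis, ± SE, labelled protoplasted over non-protoplasted) of each of the 195 members against its rank in the list (x axis), coloured by the edgeR call, with dashed lines at -3 and 3. The medians of the blocks of ranks are -4.44, -3.35, -4.55 and -2.11, and 1 member lies above 3.

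The fall was found at all levels and lengths. The 65 members with the lowest mean CPM (1.55 to 25.8) had a median log2 fold change of -3.28, the middle 65 one of -2.63 and the 65 with the highest mean CPM (73.6 to 1393) one of -3.12. By gene length the medians were -4.24 for the 65 shortest members (149 to 1437 bases), -3.10 for the middle 65 and -2.49 for the 65 longest (2758 to 12714 bases). The members were shorter than the genes tested as a whole, with a median length of 2004 against 3170 bases. Of the 90 members with a mean of at least 10 CPM in both groups, 53 were lower and 18 higher, and their median log2 fold change was -0.78, where that of the 9684 genes past the same limit was 0.06. This limit leaves out the members that fell furthest.

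At the same limit members had a wider spread between replicates in the median than all genes. Their median coefficient of variation was 15.5% in the libraries labelled protoplasted and 12.5% in the others, where all genes past the limit had 11.5% and 7.55%. Protoplasted replicate 3 stood apart for part of the list. Of the 174 members with more than 3 counts in at least 1 library labelled protoplasted, 24 (13.8%) were at least 2 times as high in replicate 3 as in both other replicates, which was so for 0.950% of all genes tested under the same condition. The same was seen for 7 members in replicate 1 (4.02%, against 2.66% of all genes) and 4 in replicate 2 (2.30%, against 0.822%). Of the 24 members 17 had a log2 fold change below -3. Among the members below -3 it was 21.5% of 79, and among the other genes below -3 it was 5.18% of 1968. Those ranked 98 (above), 149 (2.17, 3.09 and 27.6 TPM) and 34 (7.61, 11.9 and 73.3 TPM) showed it among the abundant members. Without this replicate 154 members were lower and the median log2 fold change was -3.07.

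In the libraries labelled non-protoplasted the replicates differed in another way. Replicate 1 was the highest of the 3 libraries for 127 members and replicate 2 the lowest for 126, in CPM. The same was not counted over all genes tested, so that it cannot be called particular to the members. Replicate 1 was also the library with the fewest counts of all 6. Without replicate 1 of this group 149 members were lower, and without replicate 2 it was 153.

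The members were set beside 2 lists ranked by the same difference in share. The rules are not the same, since tissue markers were left out of the members but not of these lists. Of the 503 silica cell lineage genes left out, 460 stood in the partial text of the tissue markers. The 1999 genes of that text were counted as mesophyll genes. The mesophyll list was drawn from the same text, so that by rule the members hold none of its genes. The stage 0-2 list holds marker genes of protodermal cells before and during the first asymmetric divisions. The 89 members that are also stage 0-2 markers were taken out of it, so that the lists share no gene but do not stand for separate cell types. Of these 89, 85 were tested, and 72 were lower and 3 higher, with a median log2 fold change of -4.27. Of the other 110 members tested 80 were lower and 18 higher, with a median of -2.42. In the stage 0-2 list 149 of 197 genes tested were lower and 33 higher, with a median log2 fold change of -2.28 and 76 genes below -3. Its share of the counts was 3.50% ± 0.370 in the libraries labelled non-protoplasted and 1.23% ± 0.0520 in the others (SD, n = 3 each, exact permutation p = 0.1). Of 199 mesophyll genes tested 148 were higher and 14 lower, with a median of 0.90 and 2 genes below -3. Near absence from all 3 libraries labelled protoplasted (at most 3 counts each) was seen for 0 mesophyll genes, 17 stage 0-2 genes and 21 silica cell lineage members. The difference between the lists was not tested.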

How the data were processed

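Reads were inspected with FastQC, aligned to genome version v1.1 of Bd21-3 by Bowtie2 and summed for each gene in summarizeOverlaps by the authors. They deposited raw counts, a signal in reads per kilobase (the count over gene length), TPM values scaled from it and the gene length, an other kind of column. The single-cell markers were made on another annotation version, and IDs were matched as written. Bowtie2 does not split reads over introns. The counting mode and the use of strand are not given in the sources used here, so that counts of overlapping, antisense or near-identical genes are uncertain.

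For the counts, edgeR 4.0.16 in R 4.3.3 was used (filterByExpr with a minimum count of 10, TMM, glmQLFit and glmQLFTest, prior count 0.125, Benjamini-Hochberg over 23677 genes, threshold 0.05). SE is the absolute log2 fold change over the square root of F. CPM used TMM-scaled library sizes (factors 0.84 to 1.15). Levels between genes are given in deposited TPM. The floor of 3 counts covers counting error only, whereas the SE also takes in the spread between replicates. Tables were made with Python 3.11.15 and scipy 1.17.1. On simulated counts for 23677 genes edgeR recovered 83.3%, 100% and 100% of the 66, 64 and 67 genes changed by a log2 fold of 1, 2 and 3. It also called 7 unchanged genes. The simulation gave all genes the same dispersion and changed few of them, unlike these data. These rates therefore do not give the power for the members.

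The members and lists were chosen with earlier results of these data known. IDs are printed for 2 members per direction, those furthest from 0 that passed an adjusted p of 0.05, averaged 10 CPM or more and had no overlap of groups. The first and the last member are described by rank. Other members were chosen for description after their values were seen. The 2 comparison lists took the first 200 genes by the same difference in share from the mesophyll and stage 0-2 markers, less the silica cell lineage members. Unlike the members, they were not stripped of tissue markers. The text of the marker tables was partial, so that shared genes were counted with no test. Members shared with the stage 0-2 markers were counted over every stomatal lineage row of that text, with no filter on cell type. The study's own fold change columns were not used. Of the members, 0 were found by ID in the RefSeq table of the Bd21 assembly, and no sequences or coordinates were used. Replicate numbers come from the labels, no pairing is stated, and 0 columns of single libraries were left unused. Alternatives used DESeq2 1.42.0, limma-trend (limma 3.58.1) with a pseudocount of 1 or 0.1 added to TPM before the log2, other size factors and filters, a replicate block, and each library left out. For the members described by rule a prior count of 2 was used as well.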

Additional observations from a re-analysis of the deposited data

How the results depend on the processing

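The 5 summaries of the list were recomputed under 16 alternatives each, and 64 of 80 values stayed close to those reported. Leaving out each library in turn gave 20 to 26 members higher, 149 to 154 lower, 1 to 2 above a log2 fold change of 3, 94 to 101 below -3 and a median of -3.17 to -2.92. With library size only, 3 members lay above 3 and the median was -2.70, while the median of all genes moved from 0.04 to 0.42, so that the difference of the members from it was -3.12 in both fits. With at least 10 counts in every library, which tests 141 members and drops those near 0, 100 were lower, 48 lay below -3 and the median was -2.0. limma-trend on log2(TPM + 1) gave 3 members above 3 and a median of -2.54, and on log2(TPM + 0.1) 3 above 3. With the first 200 genes taken before the listed genes were left out, 152 members were tested and the median was -3.57. With the groups exchanged, as the treatment entry names them, 152 were higher, 21 lower, 100 above 3 and 1 below -3, and the median was 3.08. This is the main fit with its sign turned, so its 5 values were fixed in advance. All 5 are counted among those that did not stay close. DESeq2 called 20 higher and 155 lower. For the 6 members described by rule, 86 of 88 values kept direction and call. The exceptions were the member ranked 1 without protoplasted replicate 3 (-0.28, adjusted p = 0.597) and without protoplasted replicate 1 (0.99). Same-numbered libraries deviated together with correlations of 0.141, 0.0495 and 0.103, so the numbers were not taken to pair them, and not every library correlated best with its own number. The replicate block gave 23 members higher, 155 lower, 1 above 3, 100 below -3 and a median of -3.16, and changed no call of a member described by rule. Depth limits the members at 0 to 3 counts, for which a fold change is a bound or rests on single reads. The fitted log2 fold changes of the members ranked 107 and 13 were -14.93 and -14.28. With a prior count of 2 they were -10.93 and -10.28, and with limma-trend on log2(TPM + 1) they were -8.89 and -7.61. The cause of the moved values was not tested except where the fewer members show it.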

Other observations

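Some members lie side by side in the numbering of the annotation. Among the 195 members, 8 pairs had consecutive IDs. In 5 pairs both genes were lower in the libraries labelled protoplasted, and the pair ranked 118 and 167 had log2 fold changes of -12.56 and -12.02 (edgeR adjusted p = 2.1e-07 and 9.43e-09). In the other 3 pairs the signs differed. The pair ranked 79 and 28 had log2 fold changes of -6.06 and 1.91, with adjusted p-values from edgeR of 7.14e-07 and 1.35e-06. Whether neighbours overlap or are near-identical copies was not tested. The count of pairs was made after the values were seen. Of the 195 members 164 had a log2 fold change below 0, so that many pairs of any members would both be lower. Whether neighbours changed together more often than other members was not tested.

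By the chromosome digit of the ID, 43 members were on chromosome 1, 68 on 2, 38 on 3, 28 on 4 and 18 on 5. The median log2 fold changes were -2.77, -3.14, -3.22, -4.20 and -2.30, so that members of all 5 chromosomes fell in the median.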
